A study of Mus musculus with 8 samples.

Results

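The genes of the mitochondrial respiratory chain were followed across 4 mouse leukaemias and 4 normal bone marrow populations, with the genes of the mitochondrial genome set beside those of the nuclear genome. Members were taken by symbol: every row whose name starts with mt-, and every row named as a subunit or Nduf-named assembly factor of complex I (Nduf), a subunit of succinate dehydrogenase (Sdha to Sdhd), of complex III (Uqcr), of complex IV (Cox4 to Cox8) or of ATP synthase (Atp5), without pseudogenes. The rule found 62 of the 16434 genes in the deposited table. They were all 13 mt- genes that encode proteins, both mt- ribosomal RNAs (mt-Rnr1 and mt-Rnr2), and 47 nuclear genes. Of the 47, 38 encode subunits, 7 encode complex I assembly factors, and Cox7a2l and Atp5s encode proteins associated with complex IV and ATP synthase. The GENCODE vM21 annotation has 93 nuclear protein-coding genes that match the rule, so 47 of 93 were analysed, and genes such as Cox4i1, Cox5a, Cox6a1, Ndufs1, Sdhc and Uqcrfs1 were not analysed here. None of the 22 mt- transfer RNA genes of that annotation is among the members.

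The respiratory chain sits in the inner mitochondrial membrane and passes electrons from NADH (through complex I) and succinate (through complex II) to coenzyme Q, complex III, cytochrome c and complex IV, where oxygen is reduced to water. Complexes I, III and IV pump protons, and ATP synthase (complex V) uses the gradient to make ATP. All complexes but II are built from subunits of both genomes: a small set of hydrophobic core proteins is made inside the organelle from mt- messenger RNAs, and the others are imported. The mitochondrial genome is transcribed by its own polymerase as long precursors that are cut at transfer RNAs, whereas each nuclear gene has its own promoter. Myc-family transcription factors are known as activators of nuclear genes for mitochondrial proteins, and mature neutrophils are known for few mitochondria and a largely glycolytic metabolism.

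The series profiled acute leukaemias of several lineages from mice in which N-Myc was overexpressed. All 8 libraries came from bone marrow of C57BL/6 mice aged 8 to 10 weeks, from sorted cells, with 1 library per group. The leukaemias carried GFP and were gated as B220+ (B-cell acute lymphoblastic leukaemia, B-ALL), CD3+ (T-cell acute lymphoblastic leukaemia, T-ALL), Mac1+ Gr1+ (acute myeloid leukaemia, AML), or negative for all 4 antigens (acute undifferentiated leukaemia, AUL). The controls were normal cells of the same gates: B cells (B220+), T cells (CD3+), myeloid cells (Mac1+ Gr1+) and lineage-negative cells (negative for the same 4 antigens), with no GFP gate in their labels. How N-Myc and GFP were introduced, and how many mice each library represents, is not given in the sources used here.

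Mycn, which encodes N-Myc, had 1587, 843, 1858 and 719 FPKM (a fragment count scaled for transcript length and library depth) in the 4 leukaemias (B-ALL, T-ALL, AML, AUL) and 1.66, 0.594, 0.518 and 5.24 in the normal libraries (B, T, myeloid, lineage-negative). All lists of 4 values below keep this order. Lineage markers bear on several libraries. The 5 T-cell markers summed to 1264 FPKM in the library labelled AUL, which was gated as CD3-negative, against 1439 in T-ALL and 65.6 in normal lineage-negative cells. That library thus held T-cell transcripts near the T-ALL level. The gate is a sort on antigens and the markers are RNA, so these values do not show whether the gate was met. The name AUL is kept from the label. Neutrophil markers (7 genes) summed to 182983 in normal myeloid cells and 10154 in AML, so the Mac1+ Gr1+ normal cells were rich in neutrophil transcripts that the AML cells held at a far lower level. They also summed to 20873 in normal lineage-negative cells and 11612 in B-ALL, where normal B cells had 2862. B-cell markers (5 genes) summed to 610.1 in normal T and 608 in normal lineage-negative cells, against 4023 in normal B cells. In bulk RNA, more cells of a type and more RNA per cell cannot be told apart.

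Depth was recovered from the steps of the values and ran from 33818615 fragments (AUL) to 52280283 (normal myeloid). Of those, the 13 mt- messenger RNAs took 1.51% to 2.58% in the leukaemias and 0.562% to 2.01% in the normal cells. The 47 nuclear members took 0.724% to 0.899% in the leukaemias and 0.240% to 0.569% in the normal cells, so the groups did not overlap for the nuclear share. Below, a level is an FPKM in 1 library, a log2 ratio subtracts the normal from the leukaemia value of log2(FPKM + 1), and folds divide the FPKM values themselves. Fold intervals cover counting error only, because each group had 1 library and no replicate check is possible within a pair. A member was counted as higher or lower when it differed at least 2-fold on log2(FPKM + 1) and the larger of its FPKM values was 1 or more. The table's listing rule is not stated and may have favoured genes that differ, so each count is set beside the same share over the listed genes.

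Nuclear and mitochondrial members differed in how they compared between leukaemia and normal cells. Nuclear subunit genes were at a higher level in all 4 leukaemias, with median log2 ratios of 0.89, 0.91, 1.76 and 0.55 over 38 genes. The 13 mt- messenger RNAs were near or below the normal level in the lymphoid leukaemias (medians -0.28 in B-ALL and -0.11 in T-ALL), somewhat above it in AUL (0.32) and far above it in AML (2.39). Both mt- ribosomal RNAs were lower in 3 leukaemias, with medians of -1.16, -1.13 and -1.19 in B-ALL, T-ALL and AML, and higher in AUL (0.46). Over the 11071 listed genes that reached an FPKM of 1 in 2 or more libraries, the medians were 0.01, -0.02, 0.19 and -0.17.

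**Figure D1:**
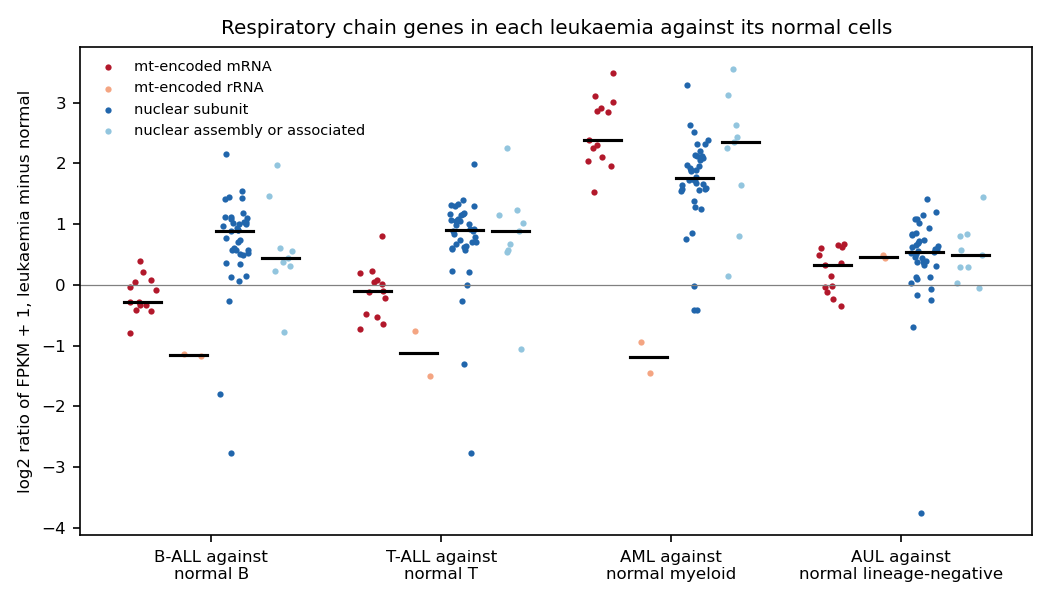
Log2 ratio of FPKM + 1 (y axis, leukaemia minus normal) for each of the 62 members in the 4 pairs (x axis); each point is a gene, coloured by class, and the black bar is the class median. Nuclear subunits sit mostly above 0 in every pair, while the 13 mt- messenger RNAs lie between -0.79 and 0.81 in 3 pairs and above 1.5 in the AML pair.

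In B-ALL 17 members were at least 2-fold higher and 4 lower, where 18.2% of 10608 listed genes were higher and 21.9% lower. T-ALL had 19 higher and 4 lower, beside 22.1% and 24% of 10461 genes. Most of the 62 members differed in AML, with 53 higher and 1 lower (43.3% and 26.7% of 9965 genes). AUL had the fewest, with 7 higher and 1 lower (13.6% and 29.5% of 10759 genes). The members that were higher in B-ALL, T-ALL and AUL were nuclear without exception (17, 19 and 7 of 47), and in AML 40 of 47 nuclear genes and 13 of 13 mt- messenger RNAs were higher. Scaling the libraries by median ratios left 8 members higher in B-ALL (14.7% of genes) and 10 in T-ALL (18.2%), a change of more than 1.5 times. In AML 24 of 47 nuclear genes and 12 of 13 mt- messenger RNAs were then higher (26.6% of genes), and in AUL 10 members, all nuclear (17.3%).

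A higher level in all 4 pairs, of any size, was seen for 39 of 47 nuclear members and 3 of 13 mt- messenger RNAs, beside 25.9% of the 11071 genes. Without the AUL pair, 41 of 47 nuclear members and 3 of 13 mt- messenger RNAs were higher in the 3 other pairs (32.4% of genes), without the myeloid pair 40 and 3 (28.2%), without the T pair 39 and 4 (29.6%), and without the B pair 39 and 4 (28.2%). For 33 of 47 nuclear members the lowest leukaemia was above the highest normal library, so the groups did not overlap, against 1 of 13 mt- messenger RNAs (mt-Atp8) and 16% of genes. With the AUL pair left out the 3 leukaemias were above the 3 normal libraries for 41 of 47 (23.2% of genes), and the counts were 35, 34 and 35 without the myeloid (20.5%), T (20.2%) and B (19.3%) pairs. Median-ratio scaling gave 37 of 47 higher in 4 pairs (23.7% of genes) and 28 of 47 without overlap (14.9% of genes). No member was lower in all 4 pairs (24.4% of genes were).

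**Figure D2:**
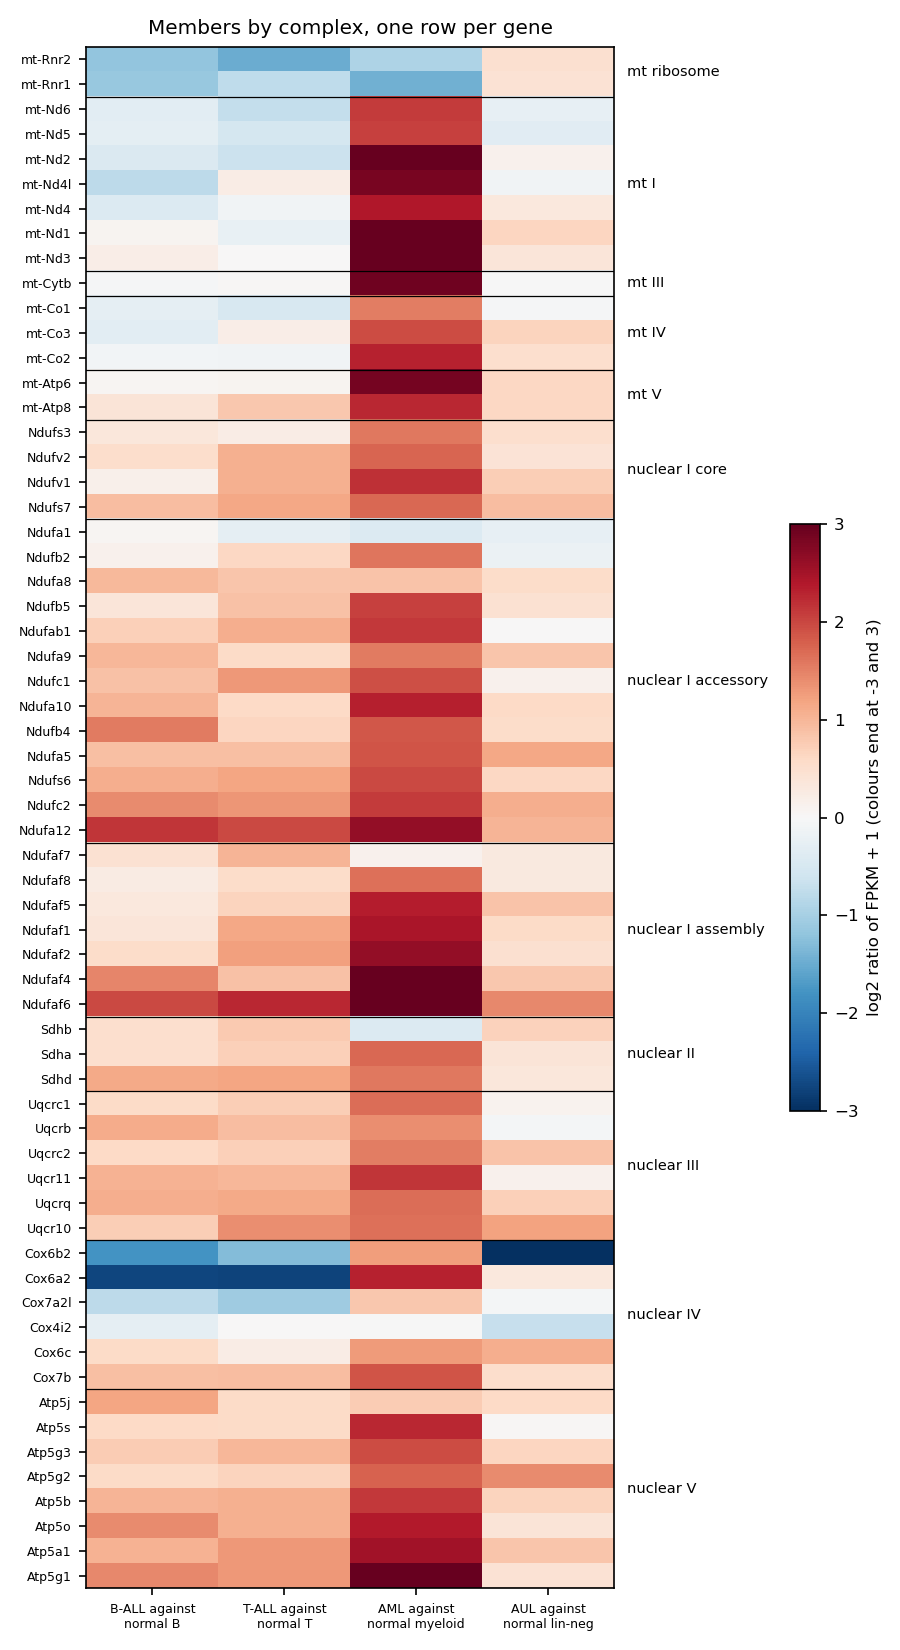
Heat map of the 62 members (rows, grouped by genome and complex) in the 4 pairs (columns); colour is the log2 ratio of FPKM + 1, red for higher in the leukaemia, with colours ending at -3 and 3. The mt- messenger RNA rows are pale in the B-ALL, T-ALL and AUL columns and dark red in the AML column, and the nuclear rows are red across the columns apart from a few genes of complexes I, II and IV.

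Within complex I the 7 mt- subunits form the proton-pumping membrane arm together with imported subunits. mt-Nd1, the subunit next to the coenzyme Q site, had 2296 in B-ALL, 1855 in T-ALL, 3955 in the AML library and 2903 in AUL. In the normal cells it had 2169.7 in normal B, 2153 in normal T, 455 in normal myeloid and 1849 in normal lineage-negative cells. The normal myeloid library was the low one by a wide margin, and AML was 8.70-fold (95% counting interval 8.58 to 8.82) above it, whereas the lymphoid pairs differed little (1.06-fold in B and 0.862-fold in T). mt-Nd2, a membrane-arm subunit, was lower than normal in both lymphoid leukaemias, with 938 against 1265 in B and 951 against 1491 in T, and 8.07-fold (7.93 to 8.22) higher in AML. mt-Nd5, at the distal end of the membrane arm, had 918, 706, 1059.8 and 745 in the leukaemias and 1118, 1022, 255 and 944 in their normal counterparts. Leukaemia was below normal in 3 pairs, and mt-Nd6, which lies on the opposite strand of the mitochondrial genome (mm10 chrM, 13552 to 14070) and overlaps the end of mt-Nd5 (11742 to 13565), was also lower in those 3, with folds of 0.796, 0.604, 4.33 and 0.849. Whether the counting used strand is not stated, so reads of mt-Nd5 and mt-Nd6 cannot be told apart where they overlap. Without strand, plus-strand RNA that runs on across mt-Nd6 would also be counted as mt-Nd6, and its part in that level was not tested. mt-Nd4, with an FPKM of 272 in normal myeloid cells and 1435 in AML, was 5.27-fold (5.19 to 5.35) higher there and 0.752-fold and 0.922-fold in the B and T pairs. The short mt-Nd3 and mt-Nd4l had levels of 5.94 to 77.2 and 5.15 to 43.5 FPKM over the 8 libraries.

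mt-Cytb, the cytochrome b of complex III and its sole subunit of mitochondrial origin, was close to level outside the myeloid pair. Its FPKM was 2842 in B-ALL, 2739 in T-ALL, 5594 in the AML library and 2637 in AUL, and 2909 in normal B, 2659.8 in normal T, 742 in normal myeloid and 2665 in normal lineage-negative cells. Folds were 0.977, 1.03 and 0.990 in the B, T and lineage-negative pairs and 7.54-fold (7.46 to 7.61) in AML. mt-Co1, the catalytic haem and copper subunit of complex IV, was the most abundant member per length, with a mean of 4866 FPKM over the 8 libraries. It had 4998 in B-ALL, 4135 in T-ALL, 5784 in the AML library and 5046 in AUL, and 6065 in normal B, 5754 in normal T, 1998 in normal myeloid and 5145 in normal lineage-negative cells. B-ALL, T-ALL and AUL were each below their normal library (folds 0.824, 0.719 and 0.981), and the AML difference of 2.89-fold (2.88 to 2.91) was the smallest among the 13 mt- messenger RNAs. mt-Co2, which takes electrons from cytochrome c, had 162, 132, 242 and 218 in the leukaemias in the same order and 172, 142, 48.1 and 155 in their normal cells. mt-Co3, the third core subunit, ranged from 20.5 in normal myeloid cells to 108 in AUL.

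The ATP synthase genes mt-Atp6 and mt-Atp8 overlap on the mitochondrial genome and were, with mt-Nd3, the 3 mt- messenger RNAs above normal in 4 of 4 pairs. mt-Atp6, the proton channel subunit, had 94.3, 85.8, 167 and 134 in the leukaemias and 90.7, 81.2, 22.0 and 87.0 in their normal counterparts. The B and T folds of mt-Atp6 had counting intervals that include 1 (1.04-fold (95% counting interval 0.984 to 1.10) and 1.06-fold (0.997 to 1.12)). mt-Atp8, a short subunit of the membrane part, had 14.3, 23.7, 19.9 and 18.6 in the leukaemias and 10.7, 13.1, 3.38 and 11.7 in the normal cells. All 4 leukaemias were above all 4 normal libraries for mt-Atp8, with folds of 1.34, 1.81, 5.90 and 1.59. Whether mt-Atp8 also has an unannotated nuclear copy was not tested. For mt-Nd3 the B and T folds were 1.16-fold (0.993 to 1.36) and 1.01-fold (0.855 to 1.19), also with intervals that include 1. With the levels of their identical nuclear copies added, described below, the log2 ratios of mt-Atp6 were -0.41 in B and -0.41 in T, and those of mt-Nd3 were -0.17 and -0.31, so the direction of both turned. Under median-ratio scaling 1 of the 13 mt- messenger RNAs was higher in 4 of 4 pairs and none separated the groups.

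The ribosomal RNAs of the organelle did not follow its messenger RNAs. mt-Rnr2, the large-subunit RNA, had 177 in B-ALL, 96.4 in T-ALL, 202 in the AML library and 332 in AUL, and 402 in normal B, 273 in normal T, 388 in normal myeloid and 237 in normal lineage-negative cells. mt-Rnr1, the small-subunit RNA, had 111, 95.4, 107 and 265 in the leukaemias and 247, 162, 295 and 195 in the normal cells. Normal myeloid cells, lowest for all 13 messenger RNAs, were highest of the 8 libraries for mt-Rnr1 and second to normal B cells for mt-Rnr2. As a share of the summed mt- messenger RNA level, the ribosomal RNAs were 2.11%, 1.61%, 1.47% and 4.06% in B-ALL, T-ALL, AML, then AUL and 4.14%, 2.92%, 16.1% and 3.18% in the normal cells. RNA was selected on oligo(dT) beads, so these levels are those left after a selection for poly(A) tails, and the part of that step in the difference was not tested.

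A stretch of nuclear chromosome 1 carries copies of part of the mitochondrial genome, and the values of several mt- genes are uncertain for that reason. In mm10 coordinates the copies lie between 24611535 and 24616197 on the minus strand, and they match mt-Nd4, mt-Nd4l, mt-Nd3, mt-Co3, mt-Atp6, mt-Co2 and mt-Co1. Over the aligned bases 6 of the 7 copies were identical to the mitochondrial gene, and the copy of mt-Co1 (Gm29216) was 99.8% identical with 1 difference. The first 60 bases of mt-Co2 and of its copy Gm28661 are shown because a read from one cannot be told from a read from the other; capitals are not used, since no base differs.

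mt-Co2 (chrM:7013-7072, plus strand): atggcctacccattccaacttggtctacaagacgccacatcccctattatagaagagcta

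Gm28661 (chr1:24615506-24615565, minus strand): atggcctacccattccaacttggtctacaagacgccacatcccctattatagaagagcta

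Of the windows of 150 bases, the read length, that each mt- transcript holds, the share found in another annotated transcript was 99.4% for mt-Atp6 and mt-Co2, 99.8% for mt-Co3, 97.0% for mt-Nd3, 98.0% for mt-Nd4l, 59.2% for mt-Nd4 and 23.6% for mt-Co1. No such window was found for mt-Nd1, mt-Nd2, mt-Nd5, mt-Nd6, mt-Cytb and mt-Atp8. Unannotated sequence was not searched. mt-Atp8 (chrM, 7766 to 7969) starts between mt-Co2 and mt-Atp6, whose copies are neighbours on chromosome 1 (Gm28661 from 24614885, Gm10925 to 24614651). Whether the gap between those copies holds mt-Atp8 sequence was not tested, so mt-Atp8 may be uncertain too. The 5 genes above 90% had mean levels of 28.7 to 159 FPKM. The 6 genes with none had a median of 995 and ran from 14.4 (mt-Atp8) to 2848. Of 5 copies with values, Gm28439, the copy of mt-Nd4, was far below its mt- gene (14.5 to 68.7 FPKM, where mt-Nd4 had 272 to 1435), and the other 4 had levels of the same order as theirs. Gm28661 had 178, 141, 265 and 206 in the leukaemias and 273, 239, 87.9 and 232 in the normal cells, and Gm10925, the copy of mt-Atp6, had 156, 146, 296 and 174 and 242, 227, 64.9 and 211. In the B pair mt-Co2 had a log2 ratio of -0.09 and Gm28661 one of -0.61, and in the AUL pair the values were 0.49 and -0.17. Adding each listed copy to its mt- gene moved the mt- median to -0.32 in B-ALL, -0.31 in T-ALL and 0.11 in AUL. With the 6 unshared genes alone the medians were -0.16, -0.37, 2.59 and 0.061 in B-ALL, T-ALL, AML, then AUL. The AUL median was near 0 without the genes that share windows with another annotated transcript, and the AML median was as large without them. The 6 genes left still include mt-Atp8.

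**Figure D3:**
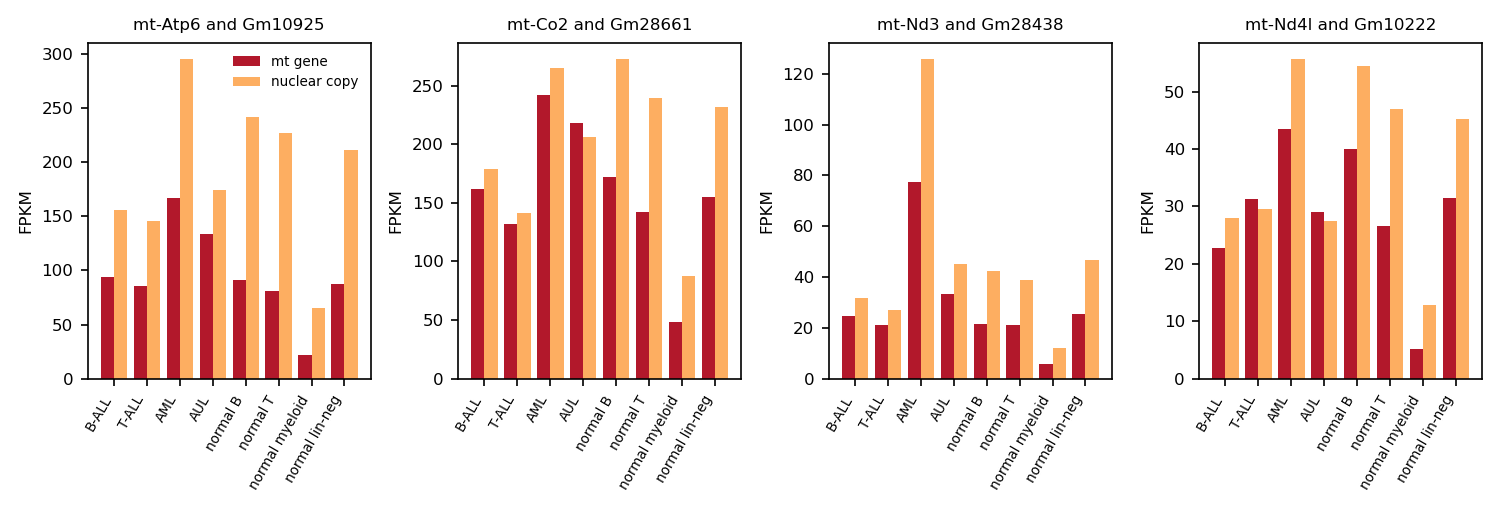
FPKM (y axis) of 4 mt- genes (red) and of their identical nuclear copies on chromosome 1 (orange) in the 8 libraries (x axis); each bar is 1 library, and mt-Nd4 with its copy is not drawn. All 4 copies are lowest in normal myeloid cells, as their mt- genes are, and the copy is above its mt- gene in 29 of the 32 comparisons drawn (29 of 40 with mt-Nd4).

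Nuclear complex I genes were measured for 4 core and 13 accessory subunits. The core genes encode parts of the arm that oxidises NADH and carries the iron-sulphur clusters. Ndufs7, which holds the last cluster before coenzyme Q, had 162 in B-ALL, 214 in T-ALL, 214 in the AML library and 200.3 in AUL, and 84.3 in normal B, 94.6 in normal T, 64.4 in normal myeloid and 104 in normal lineage-negative cells. Every leukaemia was above every normal library, with folds of 1.92, 2.26, 3.33 and 1.92. Ndufv1, the NADH-binding subunit, had 91.1, 164, 204 and 183 in the leukaemias and 82.1, 78.2, 43.6 and 109 in the normal cells, so B-ALL was near normal B cells (1.11-fold (1.06 to 1.16)) and T-ALL above normal T cells (2.10-fold (2.01 to 2.19)). Ndufs3 had the smallest mean log2 difference of the 4 core genes (0.67), with 103 in T-ALL against 87.8 in normal T cells, and Ndufv2, a partner of Ndufv1, had 0.93. Counts at 2-fold in the core were 0, 3, 4 and 0 of 4 in B-ALL, T-ALL, AML, then AUL (18.2%, 22.1%, 43.3% and 13.6% of genes). Under median-ratio scaling they were 0, 0, 1 and 1 (14.7%, 18.2%, 26.6% and 17.3% of genes).

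Accessory subunits stabilise the complex without a part in electron transfer. Ndufa12, a subunit of the matrix arm, differed most among them. Its FPKM was 158 in B-ALL, 145 in T-ALL, 128 in the AML library and 195 in AUL, and 34.8 in normal B, 35.8 in normal T, 19.9 in normal myeloid and 95.6 in normal lineage-negative cells. The lowest leukaemia was above the highest normal library, and the folds were 4.54-fold (95% counting interval 4.27 to 4.84) in B, 4.05-fold (3.80 to 4.32) in T, 6.44-fold (5.99 to 6.92) in myeloid and 2.04-fold (1.95 to 2.12) in lineage-negative cells. Ndufc2, a membrane-arm subunit and the most abundant nuclear subunit of complex I in the table, had 204, 196, 237 and 286 in the leukaemias and 75.0, 77.3, 54.6 and 135 in the normal cells, again without overlap. Ndufa1 went the other way: it had 102, 98.0, 107 and 145 in the leukaemias and 98.1, 119, 142 and 173 in the normal cells, below normal in 3 of 4 pairs, and it had the smallest spread over the 8 libraries among the subunit genes with a mean FPKM of at least 10 (SD 0.31 on the log2 scale). Ndufa8 also had a small spread (SD 0.46), yet was higher in each leukaemia, by 1.97, 1.79, 1.81 and 1.47-fold, although its AML log2 ratio was -0.037 under median-ratio scaling. Ndufb2 had a low level in every library (1.35 to 7.44 FPKM). Of the 13 accessory genes, 6, 5, 11 and 3 were at least 2-fold higher in B-ALL, T-ALL, AML, then AUL (18.2%, 22.1%, 43.3% and 13.6% of genes). Under median-ratio scaling 3, 4, 9 and 3 were (14.7%, 18.2%, 26.6% and 17.3% of genes). None was 2-fold lower as deposited, where 21.9%, 24%, 26.7% and 29.5% of genes were.

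The 7 assembly factors, which build complex I but are not part of it, had median levels of 2.31 to 28.8 FPKM over the 8 libraries, and all 7 were above normal in every pair (25.9% of genes were). Under median-ratio scaling 6 of 7 were, since the AML log2 ratio of Ndufaf7 turned to -0.69. Ndufaf6, a factor of the early steps, had 32.8 in B-ALL, 36.8 in T-ALL, 31.3 in the AML library and 37.8 in AUL, and 7.59 in normal B, 6.93 in normal T, 1.75 in normal myeloid and 13.2 in normal lineage-negative cells. It had the largest mean log2 difference of the 62 members (2.31), with folds of 4.32-fold (95% counting interval 3.68 to 5.10), 5.32-fold (4.48 to 6.34), 17.9-fold (13.6 to 23.95) and 2.87-fold (2.53 to 3.26); the AML fold rests on 55 fragments in normal myeloid cells. Ndufaf4, another early factor, had 22.6, 22.9, 18.5 and 22.0 in the leukaemias and 7.61, 12.0, 1.23 and 12.2 in the normal cells, and the groups did not overlap. The AML fold of Ndufaf4, 15.0-fold (12.6 to 17.9), rests on 143 fragments in normal myeloid cells. Ndufaf8 and Ndufaf7 showed the smallest mean differences (0.68 and 0.47), and Ndufaf7 had an AML fold of 1.11-fold (0.980 to 1.26). Ndufaf2 shares 60.7% of its windows with other transcripts and is uncertain.

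Complex II, succinate dehydrogenase, is encoded by nuclear genes alone and 3 of its genes were measured. Sdha, the flavoprotein that oxidises succinate, had 497 in B-ALL, 593 in T-ALL, 652 in the AML library and 576 in AUL, and 349 in normal B, 362 in normal T, 196 in normal myeloid and 442 in normal lineage-negative cells, without overlap. Sdhd, a membrane anchor, had 135, 114, 173 and 125 in the leukaemias and 61.1, 49.8, 56.9 and 99.3 in the normal cells, and was 2.20-fold (2.11 to 2.30) higher in B-ALL. Sdhb, the iron-sulphur subunit, was higher in B-ALL, T-ALL and AUL (113, 126 and 139.7 against 79.5, 72.3 and 85.9) but lower in AML, with 41.1 against 55.3 in normal myeloid cells. That is 1.34-fold (1.27 to 1.42) lower, and AML was the lowest of the 8 libraries, while Sdha and Sdhd in AML were the highest. Under median-ratio scaling the AML log2 ratio of Sdhb was -1.30, against -0.42 as deposited.

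All 6 complex III genes were above normal in B-ALL, T-ALL and AML (32.4% of genes were). Uqcr10, a small subunit and the most abundant of them, had 214 in B-ALL, 277 in T-ALL, 284 in the AML library and 391 in AUL, and 127 in normal B, 104 in normal T, 89.9 in normal myeloid and 169.8 in normal lineage-negative cells. Its leukaemias were all above its normal libraries, by 1.68, 2.66, 3.16 and 2.31-fold. Uqcrq, another small subunit, had 182, 196, 271 and 247 in the leukaemias and 84.4, 88.1, 83.9 and 149.6 in the normal cells. Uqcrc1, a core protein, and Uqcrb differed less, and in AUL both were close to normal lineage-negative cells (1.07-fold (1.04 to 1.11) and 0.958-fold (0.909 to 1.01)). At least 2-fold higher were 3, 2, 6 and 1 of the 6 genes in B-ALL, T-ALL, AML, then AUL (18.2%, 22.1%, 43.3% and 13.6% of genes). Under median-ratio scaling 0, 1, 1 and 2 were (14.7%, 18.2%, 26.6% and 17.3% of genes).

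Of the 8 nuclear members that were not higher in all 4 pairs, 4 belong to complex IV (Cox6a2, Cox6b2, Cox7a2l and Cox4i2); the others are Ndufa1, Ndufb2, Sdhb and Uqcrb. The general subunits followed the other complexes: Cox7b had 230.0 in B-ALL, 276 in T-ALL, 333 in the AML library and 339.5 in AUL, and 123 in normal B, 145 in normal T, 89.1 in normal myeloid and 237 in normal lineage-negative cells, and Cox6c had 145, 129, 198 and 307 and 96.2, 111, 81.1 and 145. For both genes each leukaemia was above the normal library of its gate, although Cox7b in B-ALL (230.0) was below normal lineage-negative cells (237). Cox6a2, the heart and muscle isoform of subunit 6A, had 12.6 in B-ALL, 0 in T-ALL, 6.36 in the AML library and 29.7 in AUL, and 91.3 in normal B, 5.84 in normal T, 0.478 in normal myeloid and 23.7 in normal lineage-negative cells. Normal B cells were the high library, and B-ALL was 7.25-fold (6.499 to 8.12) lower. T-ALL had 0 fragments, which with a floor of 3 fragments makes it at least 57.2-fold lower than normal T cells (147 fragments), whereas AML was 13.3-fold (8.08 to 23.3) higher than normal myeloid cells. The same normal B library held 361 FPKM of Siglech, a marker of plasmacytoid dendritic cells, and the 3 markers of those cells summed to 1192 there and to 47.8 to 289.7 in the other 7 libraries. AUL, second for Cox6a2, had 0.0368 FPKM of Siglech. Erythroid markers (7 genes) summed to 149 in AUL and 101 in normal B cells, and to 2.73 to 54.8 in the other libraries, with 37.1 in T-ALL. The part of either cell type in the Cox6a2 level was not tested.

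Cox6b2, known as the testis isoform of subunit 6B, had 3.05 in B-ALL, 2.29 in T-ALL, 71.3 in the AML library and 4.62 in AUL, and 13.1 in normal B, 7.13 in normal T, 29.5 in normal myeloid and 74.9 in normal lineage-negative cells. High levels were thus found in AML, normal lineage-negative and normal myeloid cells. AUL was 16.2-fold (12.8 to 20.8) lower than normal lineage-negative cells, B-ALL 4.28-fold (3.23 to 5.75) and T-ALL 3.11-fold (2.20 to 4.44) lower than theirs, and AML 2.41-fold (2.21 to 2.64) higher. Myeloid progenitor markers (4 genes) were high in the same libraries, with sums of 7889 in AML, 10360.1 in normal lineage-negative and 1225 in normal myeloid cells against 81.4 to 609 in the other 5. Monocyte markers (3 genes) were too, with 1084, 1092 and 733 in that order against 42.7 to 346. Of the AML sum of the monocyte markers, 1081 came from Ly6c2. The part of either set in the result was not tested. Cox7a2l is known as a factor for joining complexes III and IV into supercomplexes, a function not examined here in this mouse strain. It had 103, 121, 128 and 138 in the leukaemias and 177, 253, 72.5 and 143 in the normal cells. Cox7a2l was highest in normal T cells and lower in T-ALL by 2.09-fold (2.02 to 2.17). Cox4i2, the lung isoform of subunit 4, reached 0.616 FPKM at most and did not pass the filter on low values. The widely used partners of these isoforms, among them Cox4i1, Cox6a1, Cox6b1, Cox7a2 and Cox8a, were not analysed here.

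**Figure D4:**
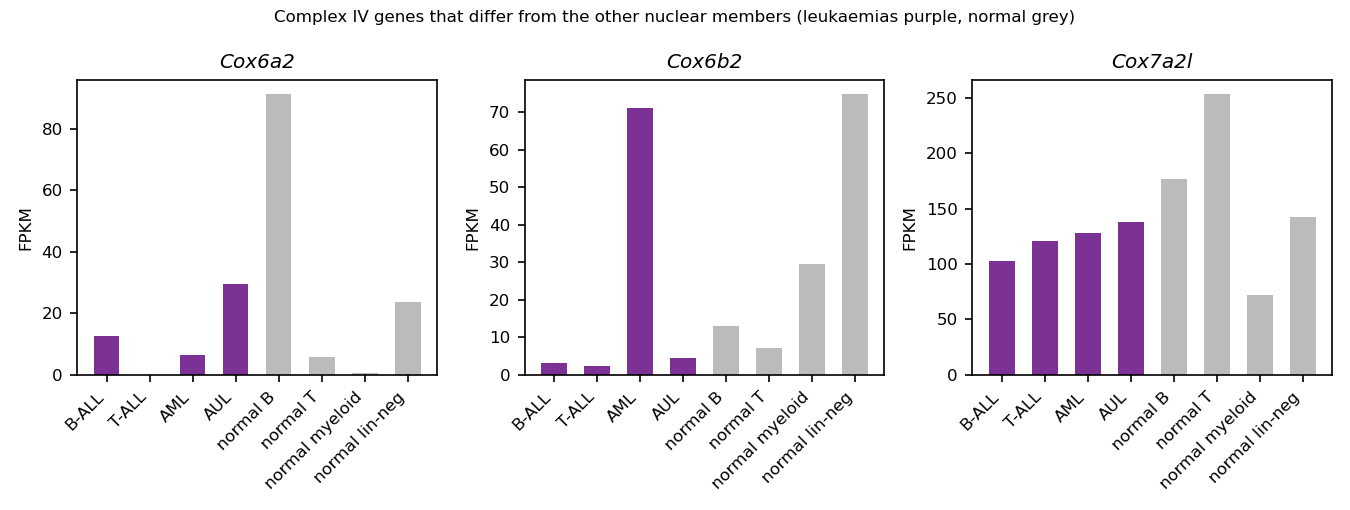
FPKM (y axes, each with its own scale, starting at 0) of Cox6a2, Cox6b2 and Cox7a2l in the 8 libraries (x axis), leukaemias in purple and normal cells in grey; each bar is 1 library. Cox6a2 peaks in normal B cells (91.3), Cox6b2 in normal lineage-negative cells (74.9) and AML (71.3), and Cox7a2l in normal T cells (253).

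ATP synthase genes gave the highest nuclear levels, and all 8 were above normal in 4 of 4 pairs (25.9% of genes were). Under median-ratio scaling 7 of 8 were, since the AML log2 ratio of Atp5j turned to -0.14. Atp5b, the catalytic beta subunit, was the most abundant nuclear member, with 1846 in B-ALL, 2009 in T-ALL, 2355 in the AML library and 2189 in AUL, and 917 in normal B, 952 in normal T, 541 in normal myeloid and 1387 in normal lineage-negative cells. All leukaemias were above all normal libraries, by 2.01-fold (95% counting interval 1.99 to 2.04), 2.11-fold (2.08 to 2.14), 4.35-fold (4.29 to 4.42) and 1.58-fold (1.56 to 1.60). Atp5a1, the alpha subunit, had 842, 903, 964 and 951 in the leukaemias and 409, 363, 167 and 530.0 in the normal cells. Subunit c, which forms the rotating ring, is made from 3 genes that encode the same mature protein, and they differed in level and pattern. Atp5g1 had 40.6, 43.6, 62.5 and 46.6 in the leukaemias against 14.3, 17.1, 5.46 and 34.1, and its AML fold of 11.4 was the largest of the nuclear subunit genes with a mean FPKM of at least 10 other than Cox6a2. Atp5g2 was highest in AUL (795; the other leukaemias had 299 to 409), although 33.1% of its windows are shared with other transcripts. Atp5g3 had 390.1, 409, 463 and 467 against 228, 206, 118 and 299.7. Atp5j, a subunit of the stalk, was among the least variable members (SD 0.50 on the log2 scale), and Atp5s, a coupling factor, had levels of 1.28 to 9.85 FPKM. Atp5o shares 17.2% of its windows, and its locus in the table is longer than the gene is in GENCODE vM21, so its level (66.3 to 352) is uncertain.

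Across the 4 pairs, leukaemia was tested against normal with limma on log2(FPKM + 1), with the gate as a block and p-values adjusted by Benjamini-Hochberg over 11071 genes. In this two-sided test 2 of the 61 members that passed the filter were called, both higher, where 1.26% of genes were called higher and 2.42% lower, so calls were few among members and genes alike. Ndufa12 differed by 1.95 ± 0.37 (SE; adjusted p = 0.043) and Ndufaf6 by 2.31 ± 0.45 (SE; adjusted p = 0.044), each higher in 4 of 4 pairs. Over the alternatives the limma adjusted p was 0.034 to 0.14 for Ndufa12 and 0.036 to 0.14 for Ndufaf6, and leaving out any 1 of the 4 pairs ended both calls (0.064 to 0.14 and 0.059 to 0.14). With no adjustment, 29 members had p under 0.05 in the higher and 0 in the lower direction, where 17.6% of genes did so in the higher direction. The next members were Ndufc2 (1.48 ± 0.34 (SE; adjusted p = 0.054)), Uqcr10 (1.25 ± 0.33 (SE; adjusted p = 0.064)) and Ndufs7 (1.19 ± 0.33 (SE; adjusted p = 0.066)), with the same limma test. Among mt- messenger RNAs the smallest adjusted p was that of mt-Atp8 (1.02 ± 0.45 (SE; adjusted p = 0.15)), and mt-Co1 had 0.19 ± 0.62 (SE; adjusted p = 0.82). The spread is that between 4 pairs of different lineage, with 3 residual degrees of freedom. limma moderates it toward a trend over all genes, so the SE and p-values rest on the variance of other genes as well.

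The ratio of the members of the 2 genomes within a library does not depend on how libraries are scaled. It does depend on which genes are listed: 47 of 93 nuclear genes were, against 13 of 13 mt- messenger RNAs. The listing rule is not stated and may have favoured nuclear genes that differ. Summed FPKM of the 13 mt- messenger RNAs was 13696, 11917, 21139 and 14679 in the leukaemias and 15657, 14897, 4232 and 13559 in their normal counterparts. The 47 nuclear members summed to 8432, 8926, 10390.3 and 10726 in the leukaemias and 4744, 4809, 3014 and 6837 in the normal cells, so every leukaemia was above every normal library. The mt- sum divided by the nuclear sum was 1.62, 1.34, 2.03 and 1.37 in the leukaemias. In the normal cells it was 3.30 in B, 3.10 in T, 1.40 in myeloid and 1.98 in lineage-negative cells. B-ALL was thus 2.03-fold below and T-ALL 2.32-fold below their normal cells, AUL 1.45-fold below, and AML 1.45-fold above. The AUL fold is against normal lineage-negative cells, although AUL held T-cell markers near the T-ALL level. Beside normal T cells the AUL ratio was 1.37 against 3.10, so the size of its fold depends on the normal library taken. The 6 mt- genes without shared windows gave leukaemia over normal ratios of 0.52, 0.45, 2.08 and 0.71 for the same quantity. Normal B and T cells had the highest ratios of the 8 libraries.

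**Figure D5:**
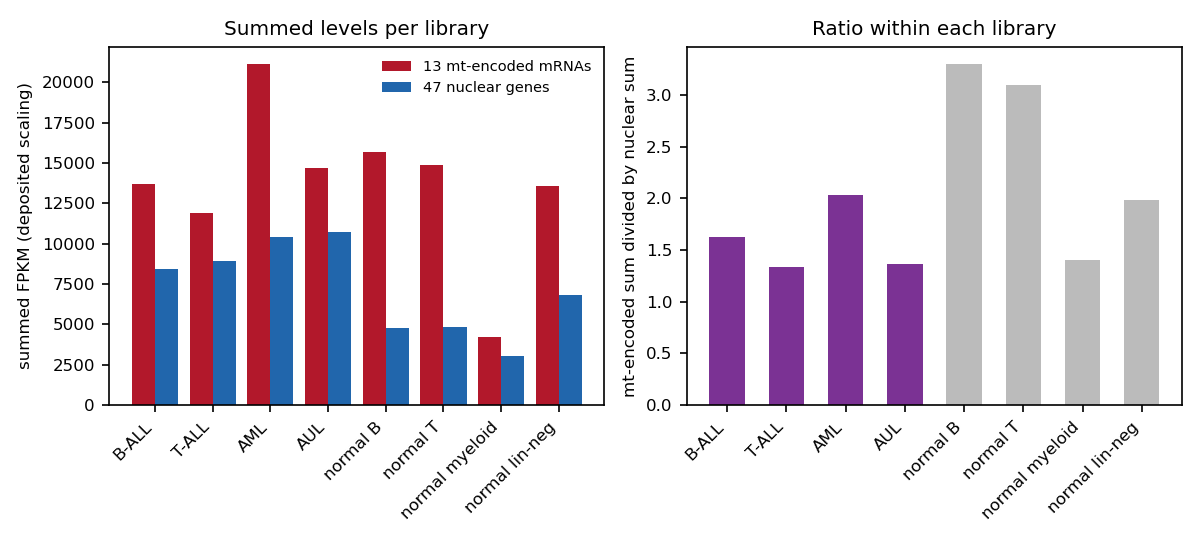
Left, summed FPKM (y axis) of the 13 mt- messenger RNAs (red) and the 47 nuclear members (blue) in the 8 libraries (x axis); right, the mt- sum divided by the nuclear sum, leukaemias in purple and normal cells in grey. The ratio is 3.30 and 3.10 in normal B and T cells and between 1.34 and 2.03 in the other 6 libraries.

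Normal myeloid cells held the lowest level of 50 of the 62 members, including all 13 mt- messenger RNAs and 37 of 47 nuclear genes, where 36.7% of genes were lowest there. A few abundant transcripts filled that library: its 7 neutrophil markers alone summed to 182983 of 670097 FPKM over the listed genes, and their part in the AML differences was not tested. Median-ratio scaling, which allows for such transcripts, left 29 of 62 members lowest there, where 2789 of 11013 genes were. The 29 were all 13 mt- messenger RNAs and 16 of 47 nuclear genes. This scaling moved the median log2 ratio of all genes in AML from 0.19 to -0.16. That of nuclear subunits went from 1.76 to 0.94 and that of mt- messenger RNAs from 2.39 to 1.52. In the B and T pairs it moved the medians of all genes from 0.01 to -0.10 and from -0.02 to -0.14, and in AUL from -0.17 to -0.05. Nuclear subunits stayed above the median of all genes in each pair under both scalings.

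Promoters of the nuclear members were read because these genes were mostly higher together. RefSeq windows (GRCm38.p6, 250 bases before to 50 after the start) matched 38 of the 47 nuclear members, and 4 motifs were searched on both strands. Each gene was counted once, and the shares to compare are those over 27025 genes with windows and over the 17491 protein-coding ones. CACGTG, the E-box read by Myc-family proteins, was in 3 of the 38 genes (7.89%: Atp5g1, Atp5g3 and Ndufv1), against 8.09% and 8.91%. The palindromic motif of the respiratory regulator NRF1, printed in capitals for Ndufaf4, was in 4 (10.5%, against 1.07% and 1.47%). CCGGAAG, read by ETS proteins such as GABP, was in 7 (18.4%, against 9.93% and 12.9%). AAGATGGCG, read by YY1, was in 6 (15.8%, against 1.64% and 2.14%). In 5 of those 6 the YY1 letters lay after the start, and the letters contain ATG. A match also began after the start in 2 of the 4 NRF1 genes and 1 of the 7 ETS genes. A stretch from 150 to 31 bases before the start is printed for 1 gene of each of the 3 other motifs, 5′ to 3′ on the gene's strand, with the motif in capitals.

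Atp5g1 (chr11:96075662-96075781, minus strand, E-box): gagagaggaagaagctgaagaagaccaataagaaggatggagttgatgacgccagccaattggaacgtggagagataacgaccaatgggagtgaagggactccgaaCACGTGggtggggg

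Ndufaf4 (chr4:24897933-24898052, plus strand, NRF1): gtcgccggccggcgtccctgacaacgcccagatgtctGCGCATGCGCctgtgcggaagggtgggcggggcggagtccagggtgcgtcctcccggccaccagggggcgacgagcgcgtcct

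Uqcr11 (chr10:80406852-80406971, minus strand, ETS): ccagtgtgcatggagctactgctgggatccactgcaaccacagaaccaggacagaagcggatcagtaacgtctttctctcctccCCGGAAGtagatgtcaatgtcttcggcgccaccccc

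The motif begins 44 bases before the start in Atp5g1, 113 in Ndufaf4 and 66 in Uqcr11. Levels of the 3 genes with an E-box ran from near-equal in the B pair for Ndufv1 (1.11-fold) to 11.4-fold in AML for Atp5g1, and Ndufa12, with the second largest mean difference of the members, has none of the 4 motifs in its window. A match is a description of letters and not a site of binding.

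Genes that keep the mitochondrial genome and its RNA in use were followed beside the members. Of 13 listed genes of mitochondrial DNA maintenance and transcription, 9 were higher in 4 of 4 pairs (25.9% of all genes) and 1, Polg2, was lower (24.4%). Tfam, which packages and activates the mitochondrial genome, had 68.7, 57.2, 35.5 and 59.4 in the leukaemias and 41.3, 32.6, 6.94 and 31.3 in their normal counterparts. Polrmt, the mitochondrial RNA polymerase, had 35.3, 32.9, 20.5 and 32.0 and 25.5, 26.6, 4.84 and 19.9. So in B-ALL and T-ALL both genes were above normal, and the median of the mt- messenger RNAs was below it. Of 12 listed genes of mitochondrial RNA processing and stability, 11 were higher in 4 of 4 pairs, among them Lrpprc, which stabilises mt- messenger RNAs (81.1, 77.4, 93.0 and 84.8 against 29.0, 30.2, 6.21 and 31.4), and Tbrg4 (158, 162, 221 and 138 against 63.8, 63.9, 38.3 and 81.8). Ssbp1, which coats single-stranded mitochondrial DNA, had 38.3, 29.0, 45.002 and 38.4 against 27.9, 22.7, 11.5 and 30.8, and Elac2, which cuts transfer RNA ends, had 56.2, 44.7, 55.2 and 39.3 against 20.7, 23.9, 5.63 and 24.4. Polg, the replicative polymerase, had 89.5, 74.4, 47.03 and 51.0 in the leukaemias and 72.2, 54.2, 64.3 and 56.6 in the normal cells, above normal in B-ALL and T-ALL and below it in AML and AUL.

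Electron carriers and coenzyme Q synthesis genes were higher in 4 of 4 pairs for 12 of 14, where 25.9% of all genes were higher and 24.4% lower, the shares to set beside the counts of the other lists too. Cycs, cytochrome c, had 98.5, 98.3, 79.0 and 156 in the leukaemias and 36.0, 37.3, 26.8 and 92.8 in the normal cells. Etfa, part of the flavoprotein that brings electrons from fatty acid oxidation, had 123, 133, 161 and 156 against 74.3, 66.7, 37.6 and 115, and Coq2, of coenzyme Q synthesis, 94.7, 108, 88.6 and 71.1 against 64.0, 46.9, 13.2 and 57.7. Of 21 listed assembly factors outside the member names 12 were higher and 3 lower in 4 of 4 pairs, the 3 being Cox17, Cox20 and Sdhaf2. The most abundant of these factors were Uqcc2 of complex III (118, 95.6, 67.6 and 114 against 43.4, 53.1, 16.2 and 88.7), Atpaf2 (67.2, 72.5, 64.1 and 57.3 against 36.7, 39.9, 13.4 and 42.5) and Tmem70 (37.7, 58.0, 46.9 and 51.6 against 21.2, 21.3, 9.32 and 31.2), both of ATP synthase. The pyruvate dehydrogenase and citric acid cycle genes, which feed the chain, were higher in 12 of 15, such as Mdh2 (382, 389, 521 and 418 against 148, 159.7, 232 and 243). Idh3g, a subunit of isocitrate dehydrogenase, had 164, 164, 198 and 157 against 124, 114, 63.3 and 159. Among 7 regulators, 3 were higher in 4 of 4 pairs: Ppargc1b (15.7, 16.5, 18.1 and 13.8 against 2.70, 7.95, 0.421 and 3.69), Pprc1 (58.5, 84.0, 68.6 and 72.4 against 24.4, 37.5, 4.61 and 33.1), both coactivators of respiratory genes, and Gabpa (87.0, 52.1, 84.3 and 54.8 against 52.1, 41.8, 26.5 and 47.9). Tfeb, a regulator of lysosomal genes, was lower in 4 of 4 (119, 31.1, 34.0 and 27.7 against 153, 50.3, 107 and 60.5), and Esrra, a nuclear receptor that acts on respiratory genes, had 32.5, 78.5, 108 and 37.8 against 77.4, 60.8, 73.4 and 56.4. Ppargc1a, the best known coactivator, had 1.27 FPKM in AML, 1.196 in normal B cells and at most 0.169 in the other libraries, and Nrf1 was not analysed here. Slc25a5, the carrier that exchanges ADP and ATP, was the 1 of 4 listed transport and uncoupling genes higher in 4 of 4 pairs (672, 884, 761 and 947 against 354, 368, 222 and 632). Slc25a4, a second such carrier, had 129.6, 80.8, 52.0 and 201 against 65.6, 88.6, 10.6 and 73.8, and Ucp2, an uncoupling protein, 1435, 803, 442 and 601 against 1086, 599, 927 and 908, highest in B-ALL and lowest in the AML library. Of the 86 listed genes of these 7 lists 0 were called by limma after adjustment (1.26% of all genes were called higher and 2.42% lower), and at an unadjusted p under 0.05 there were 37 higher, where 17.6% of all genes were, and 1 lower.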

How the data were processed

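RNA from sorted bone marrow cells was purified on oligo(dT) beads, copied with random primers and sequenced as paired 150-base reads, per the labels' protocols. The deposited table gives FPKM values for 16434 genes in 8 libraries, as the authors made them; per the submitters' processing notes the tools were STAR, HTSeq and edgeR with mm10, without versions or roles. The rule by which genes were listed is not stated. From the FPKM values, log2(FPKM + 1) was taken, genes that reached an FPKM of 1 in 2 or more libraries were kept (11071), and leukaemia was compared with normal by limma with the gate as a block and a mean trend, adjusted by Benjamini-Hochberg. The fit was tested on simulated data: with 200 of 11071 genes given a known difference, 27.4% of those with a log2 difference of 1.5 and 95.7% of those with one of 3 were found. The simulated noise of each gene was capped at the median residual SD of the data. Changed genes were drawn from those of higher level, with the same difference in every pair. Real differences vary between pairs, so the share found in the real data may be lower. Within a pair there is 1 library per group, so no test was made and a 2-fold threshold was used.

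Fragments were recovered from the steps of the FPKM values with GENCODE vM21 transcript lengths. For genes with 1 transcript, 94.1% to 94.6% of values came out whole within 0.02 fragments, and for all genes 67.2% to 70.1%; no count test was run. Intervals are 95% and cover counting error only. Named genes are all mt- members; per complex the nuclear member with the highest level and the 2 highest and 2 lowest mean differences; tissue isoforms; members 2-fold higher in 1 pair and lower in another; the 3 most and 3 least variable subunits; and per pathway list the 3 with the highest level, with Tfam, Polrmt, Cycs, Nrf1, Gabpa and the Ppargc1 family always. Atp5g2, Atp5g3, Atp5o, Ndufaf2, Uqcr11, Cox17, Cox20, Sdhaf2 and Polg2 lie outside this rule and were named after their values were seen; 1 gene that the rule names is not reported here. The members and lists were chosen with earlier results of these data known. Alternatives were other scalings, filters, pseudocounts and thresholds, fits without block or trend, and leaving out each pair; leaving out a pair for the count of genes higher in all pairs was chosen after seeing the data. Versions were R 4.3.3, limma 3.58.1, Python 3.11.15, numpy 2.4.6, pandas 2.3.3, scipy 1.17.1, Biopython 1.88 and matplotlib 3.10.9.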

Additional observations from a re-analysis of the deposited data

Results flagged for a closer look

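Cox6a2, the muscle isoform of a complex IV subunit, spanned 5.09 between its highest and its lowest log2 ratio over the 4 pairs: it was higher in AML and AUL than in their normal cells and lower in B-ALL and T-ALL. Cox6b2, the testis isoform of another complex IV subunit, spanned 4.9999, with AML higher and B-ALL, T-ALL and AUL lower. Each pair has 1 library per group, so the differences between pairs were not tested.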

How the results depend on the processing

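Of 677 values recomputed under alternatives for 95 results, 560 were labelled as keeping their direction and side of the threshold or within the counting error. Of the others 98 moved, 17 lost and 2 gained the threshold, and 0 were labelled reversed. That label did not count every change of sign. Under median-ratio scaling the mean log2 difference went from 0.19 to -0.07 for mt-Co1, 0.22 to -0.04 for mt-Nd5 and 0.20 to -0.06 for mt-Nd6. The cause was not tested for those that moved. The limma calls among the members (2 higher) were 0 under scaling to a common FPKM sum, with or without mt- genes, with no filter and with no gate block, 1 with no trend, and 0 to 0 when each pair was left out. No paired analysis by replicate number was possible because each group has 1 library; the gate block is the pairing used.

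At a 1.5-fold threshold, 27 members were higher in B-ALL, 37 in T-ALL and 25 in AUL, and 7 were lower in T-ALL and 2 in AML. Median-ratio scaling gave 8 higher in B-ALL (14.7% of genes), 10 higher in T-ALL (18.2%) and 4 lower in AML. No share over all genes is given for the 1.5-fold counts or for the 4 lower in AML. Those counts are therefore not read as a result about the members.

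The ratio of summed mt- FPKM was 0.791, 0.709, 2.69 and 1.21 in B-ALL, T-ALL, AML, then AUL with median-ratio scaling and 0.841, 0.814, 5.87 and 1.02 with a common FPKM sum. For nuclear members these were 1.61, 1.65, 1.86 and 1.76, and 1.71, 1.89, 4.05 and 1.48.

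The mt- median log2 ratio with median-ratio scaling was -0.42, -0.28, 1.52 and 0.49. With a common sum it was -0.34 in B-ALL, 2.62 in AML and 0.24 in AUL, and without mt- genes in that sum -0.34, 2.67 and 0.24. Within libraries, the mt- sum over the nuclear sum with the 6 unshared genes was 0.898, 0.743, 1.28 and 0.748 in the leukaemias and 1.72, 1.65, 0.617 and 1.05 in the normal cells. For the median, the 6 unshared genes gave -0.16, -0.37, 2.59 and 0.061, adding the copies gave -0.32, -0.31 and 0.11 in B-ALL, T-ALL and AUL, and a pseudocount of 0.1 gave 2.53 in AML. The nuclear subunit median with median-ratio scaling was 0.75, 0.73, 0.94 and 0.71. In AML it was 1.99 with a common sum, 2.04 without mt- genes in the sum and 1.84 with a pseudocount of 0.1, and in AUL 0.47 with either sum.

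Depth limits Cox6a2 in T-ALL (0 fragments), Cox4i2, and the AML folds that rest on few normal myeloid fragments: 17 for Cox6a2, 36 for mt-Atp8 and 55 for Ndufaf6.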
